A study of Mus musculus with 4 samples.

Results

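Crosslink repair, homologous recombination, mismatch repair and damage checkpoint genes were followed in Th17 cells, the CD4+ T cells that make interleukin 17. The 44 genes were taken by symbol from the 34745 gene rows of the deposited count table, and all 44 passed the filter on low counts. Naive CD4+ T cells from spleens of C57BL/6 mice were polarized toward Th17 for 3 days. Wild-type (WT) cells gave 2 libraries, numbered 13 and 15, and cells of the genotype Setd2-CD4 cre gave 2, numbered 22 and 24. Setd2 encodes the enzyme that trimethylates lysine 36 of histone H3, and Cre driven from Cd4 sequences acts during thymic development in CD4 and CD8 T cells. The sources used here give neither the part of Setd2 that was targeted nor whether WT mice carried any engineered allele.

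Interstrand crosslinks block replication forks. The Fanconi core complex attaches ubiquitin to the FANCD2-FANCI clamp at such forks, nucleases then unhook the lesion, and homologous recombination, in which BRCA2 acts as a mediator, rebuilds the broken strand from resected ends. Many of these genes are transcribed mainly in dividing cells, and activated T cells divide rapidly. Trimethylated lysine 36 has been linked in other cells to mismatch repair and to resection of broken ends.

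Libraries held 11007343 to 12518415 counts. Setd2 itself stood at 183 and 176 CPM (counts divided by the library's total in units of 1e+06 and scaled by TMM factors) in WT 13 and 15. Setd2-CD4 cre 22 and 24 held 144 and 153 CPM. The log2 fold change was -0.28 (SE 0.10), which did not pass (edgeR quasi-likelihood fit, Benjamini-Hochberg adjusted p = 0.0748). These sums over the whole gene do not test whether some of its exons were removed. All 10 markers of T and Th17 cells had counts in these libraries, with Cd4 at 939 to 1138 CPM. Il23r stood at 3.81 and 3.80 CPM in WT 13 and 15. All 14 B cell markers had counts as well, so counts alone do not identify the cells.

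Most repair genes that differed were lower in Setd2-CD4 cre cells. At an adjusted p of 0.05 in edgeR's quasi-likelihood fit, 18 of the 44 (40.9%) were lower, beside 14.5% of the 12927 genes tested. A further 2 (4.55%) were higher, beside 16.2%. The nuclease subunit gene Eme2 fell 6.26-fold, the dissolution subunit gene Rmi2 3.21-fold and the recombination mediator gene Brca2 2.52-fold. The 2 genes that rose were Rbbp8, which encodes the end resection factor CtIP, and Atr, which encodes the apical kinase of the replication checkpoint. The median log2 fold change over the 44 genes was -0.45, and over all genes tested it was -0.01.

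In 28 of the 44 genes both Setd2-CD4 cre libraries lay below both WT libraries, beside 36.1% of genes tested, and in 6 they lay above, beside 34.6%. Falls of at least 1.5-fold were called for 14 genes (11.3% of genes tested) and of at least 2-fold for 6 (5.52%). Setd2-CD4 cre 22 had the lower value of its genotype in 15 of the 18 genes that fell. An exact permutation test of a single gene cannot give a two-sided p below 0.333 with 2 libraries against 2, so every p here comes from the model across all genes. In bulk RNA, fewer cells of a type and less RNA per cell cannot be told apart.

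**Figure D1:**
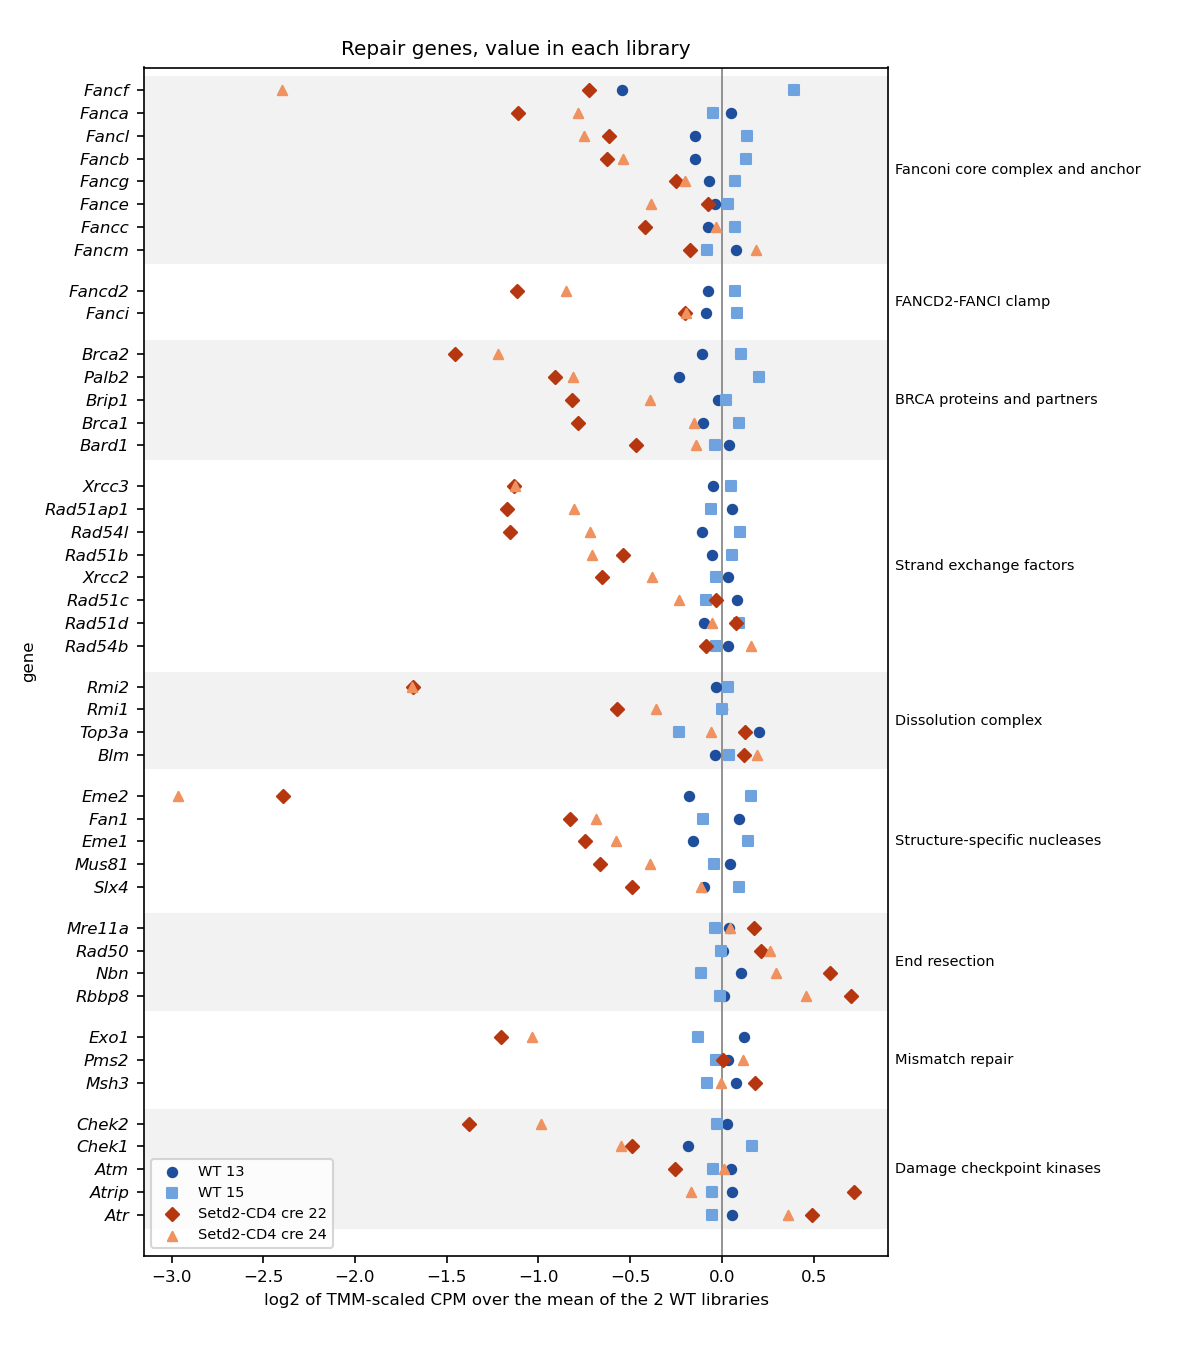
Each symbol is 1 library, placed at the log2 of its TMM-scaled CPM over the mean of the 2 WT libraries (x axis), for the 44 repair genes (y axis) grouped by role. Eme2, Rmi2 and Brca2 lie far to the left in both Setd2-CD4 cre libraries, while all 4 end resection genes lie to the right of WT.

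The calls did not all rest on the same strength of evidence. Fits without a WT library called fewer of all genes, so a call lost there need not reflect that gene's own values. Of the 20 genes called, 8 stayed past the threshold in all 12 alternative settings, namely Fanca, Fancd2, Brca2, Rad51ap1, Rad54l, Rmi2, Eme2 and Chek2, and all 8 were lower. Without WT 13 the number lower was 10 (5.5% of genes tested), and without WT 15 it was 9 (4.24%). With WT 13 or WT 15 left out, edgeR called 0 members higher, beside 6.88% and 5.4% of genes tested, and 3 and 1 were higher at an unadjusted p under 0.05. DESeq2 called 12 lower (10.5% of genes with an adjusted p) and 2 higher (13.9%). With library totals in place of TMM factors the median of all genes was -0.16, and 21 members were lower (22.3% of genes tested) and 1 higher (10.9%).

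**Figure D2:**
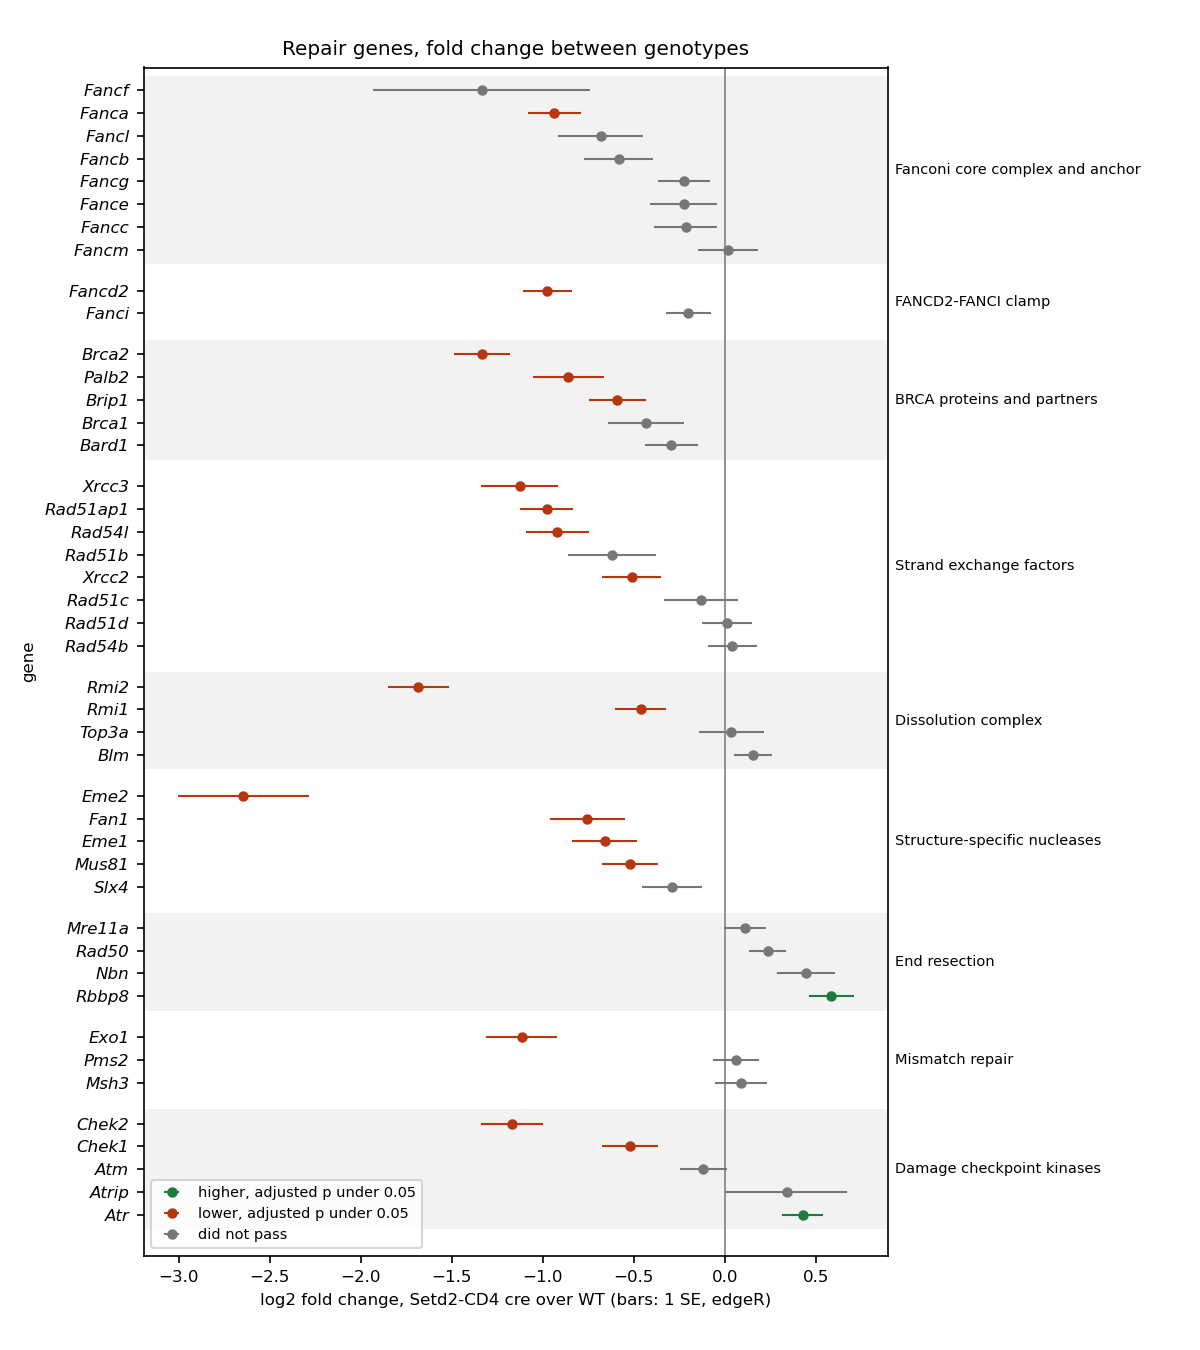
Points are edgeR log2 fold changes of Setd2-CD4 cre over WT (x axis) for the 44 genes (y axis) by role, with bars of 1 SE and colour for the call at an adjusted p of 0.05. The 18 genes called lower run from -2.65 (Eme2) to -0.46 (Rmi1), and the 2 called higher are Rbbp8 and Atr.

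Promoter sequence is shown for 4 genes chosen by the size of their falls. These were the largest among repair genes past the threshold whose window is held in the RefSeq table of GRCm38.p6. Each window runs 5′ to 3′ on the gene's strand from 250 bases before the start to 50 after it. Capitals mark E2F words, the letters TTTCCCGC, TTTGGCGC, TTTCGCGC or TTTGCCGC on either strand, which may overlap. E2F factors drive genes that prepare cells for DNA replication. The windows are Eme2 at chr17:24895038-24895337 (minus strand), Brca2 at chr5:150522371-150522670 (plus), Chek2 at chr5:110839733-110840032 (plus) and Xrcc3 at chr12:111813830-111814129 (minus).
Eme2: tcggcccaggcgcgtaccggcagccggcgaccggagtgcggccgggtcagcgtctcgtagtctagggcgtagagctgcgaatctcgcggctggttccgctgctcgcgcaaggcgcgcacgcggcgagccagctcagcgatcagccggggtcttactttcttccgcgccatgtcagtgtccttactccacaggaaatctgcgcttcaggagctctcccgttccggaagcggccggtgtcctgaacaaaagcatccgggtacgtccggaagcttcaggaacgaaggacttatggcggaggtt
Brca2: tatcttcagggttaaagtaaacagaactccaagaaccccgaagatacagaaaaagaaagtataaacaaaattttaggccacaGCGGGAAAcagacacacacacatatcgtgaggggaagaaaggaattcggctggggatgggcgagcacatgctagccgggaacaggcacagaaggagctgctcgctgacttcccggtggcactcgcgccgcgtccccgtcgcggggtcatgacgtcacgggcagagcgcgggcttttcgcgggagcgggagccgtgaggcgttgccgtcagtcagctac
Chek2: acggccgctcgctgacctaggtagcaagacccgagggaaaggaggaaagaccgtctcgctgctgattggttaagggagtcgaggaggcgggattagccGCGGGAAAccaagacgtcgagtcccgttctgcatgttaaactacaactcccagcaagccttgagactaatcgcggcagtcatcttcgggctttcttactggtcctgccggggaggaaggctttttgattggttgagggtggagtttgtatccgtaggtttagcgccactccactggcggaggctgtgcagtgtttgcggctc
Xrcc3: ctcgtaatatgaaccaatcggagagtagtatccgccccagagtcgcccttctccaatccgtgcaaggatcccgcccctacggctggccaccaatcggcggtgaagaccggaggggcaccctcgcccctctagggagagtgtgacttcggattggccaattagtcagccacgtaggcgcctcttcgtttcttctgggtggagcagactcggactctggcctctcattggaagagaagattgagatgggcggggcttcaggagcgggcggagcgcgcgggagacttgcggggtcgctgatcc

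Of the 34 repair genes with a window, 7 (20.6%) held an E2F word, beside 704 of all 27025 genes with a window (2.6%). Those 27025 genes were not matched to the repair genes for base composition or expression. TTTCCCGC, present in Brca2 and Chek2, occurred in 5 of the 34 and in 1.24% of all genes. In both it lay on the opposite strand, so the window shows its reverse complement, with the leftmost base at -168 relative to the start in Brca2 and at -152 in Chek2. The windows of Eme2 and Xrcc3 held none of the 4 words. The 7 genes with a word had a median log2 fold change of -0.29 and the 27 without one -0.52. Lower were 3 of the 7 and 11 of the 27, beside 14.5% of genes tested. Only these exact words were sought, and some windows, as in Fancc and Slx4, lie away from the start of the deposited gene span. Whether E2F sites go with the falls was therefore not tested. The letters TTTGAA or TTTCGAA, a core of the cell cycle homology region, were in 3 of the 34 windows (8.82%) and in 20.9% of genes. These matches describe letters in a window and not bound sites.

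In the Fanconi core complex and its anchor Fancm, 1 of 8 genes (12.5%) was called lower, beside 14.5% of genes tested. Fanca (chromosome 8, 123268300 to 123318576 in GRCm38), which encodes a scaffold subunit, stood at 73.3 and 68.6 CPM in the WT libraries against 32.9 and 41.2 CPM in Setd2-CD4 cre. Both Setd2-CD4 cre libraries lay below both WT libraries, as in 36.1% of genes tested. The log2 fold change was -0.94 (SE 0.15, edgeR adjusted p = 0.00374). Fancl, which encodes the ubiquitin ligase subunit, stood at 8.76 and 10.6 CPM against 6.33 and 5.77 (-0.68, SE 0.23, edgeR adjusted p = 0.0595). Fancb, a partner of that ligase in the complex, stood at 14.7 and 17.8 CPM against 10.5 and 11.2 (-0.58, SE 0.19, adjusted p = 0.0516). Both were below WT in both libraries without passing, and they passed in 5 and 7 of the 12 alternatives.

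Fancf, an adaptor subunit gene, held only 26 and 50 counts in the WT libraries against 18 and 6 in Setd2-CD4 cre, and its log2 fold change of -1.33 had an SE of 0.60 (edgeR adjusted p = 0.124). Without Setd2-CD4 cre 22 it was -2.37 and passed (adjusted p = 0.00983). Fancc, Fance and Fancg, which encode other subunits, lay between -0.21 and -0.22. Fancm, the translocase that brings the complex to DNA, stood at 30.8 and 27.6 CPM against 25.9 and 33.2, with overlap between genotypes (0.02, SE 0.17, edgeR adjusted p = 0.94). Its sign was negative with library totals and with upper-quartile factors.

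The clamp genes gave different calls. Fancd2 (chromosome 6, 113531682 to 113597017) fell from 84.8 and 93.9 CPM to 41.3 and 49.5 CPM (-0.98 on the log2 scale, SE 0.14, edgeR adjusted p = 0.00249). Its partner Fanci stood at 55.6 and 62.5 CPM against 51.3 and 51.5 (-0.20, SE 0.12, edgeR adjusted p = 0.246). Fancd2 was 1.97-fold lower with a wide gap between genotypes, while Fanci lay only slightly below WT. Differences between members, here and further on, were not tested.

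Among BRCA1, BRCA2 and their partners, 3 of 5 genes fell, beside 14.5% of genes tested. Brca2 (chromosome 5, 150522630 to 150570329) went from 51.2 and 59.4 CPM to 20.1 and 23.7 CPM (-1.33, SE 0.15, edgeR adjusted p = 0.00146). Palb2, which encodes the bridge between BRCA1 and BRCA2, went from 21.2 and 28.6 CPM to 13.2 and 14.2 CPM (-0.86, SE 0.19, edgeR adjusted p = 0.0142). WT 15 held the highest Palb2 value. Without WT 15 the log2 fold change was -0.63 and the call was lost, in a fit that called fewer of all genes. Brip1, a helicase gene also known as Fancj, went from 65.2 and 67.2 CPM to 37.6 and 50.4 CPM (-0.59, SE 0.16, edgeR adjusted p = 0.0263), and lost its call without WT 13 (0.0954) or WT 15 (0.130).

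Brca1 and Bard1 encode the heterodimeric ubiquitin ligase that acts before BRCA2. Brca1 stood at 120.5 and 138 CPM against 75.0 and 116 (-0.43, SE 0.21, edgeR adjusted p = 0.162). Setd2-CD4 cre 22 was far below WT and Setd2-CD4 cre 24 only just below it, so without Setd2-CD4 cre 22 the log2 fold change was -0.15 and without Setd2-CD4 cre 24 it was -0.78 and passed (edgeR adjusted p = 5.998e-06). In Bard1, too, Setd2-CD4 cre 22 was the lowest library and Setd2-CD4 cre 24 lay just below WT, at 60.2 and 57.1 CPM against 42.4 and 53.3 (-0.29, SE 0.14, edgeR adjusted p = 0.156).

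Rad51b, Rad51c, Rad51d, Xrcc2 and Xrcc3 encode related proteins that assist strand exchange. Of these 5, 2 fell, beside 14.5% of genes tested. Xrcc3 (chromosome 12, 111803192 to 111813873) went from 12.3 and 13.2 CPM to 5.84 and 5.86 CPM (-1.13, SE 0.21, edgeR adjusted p = 0.00743). Without WT 15 its log2 fold change was -1.08 and the call was lost. Xrcc2 went from 25.7 and 24.5 CPM to 16.0 and 19.2 CPM (-0.51, SE 0.16, edgeR adjusted p = 0.0471). It was not called by DESeq2 (adjusted p = 0.141), nor without WT 13 (0.242), WT 15 (0.205) or Setd2-CD4 cre 22. Rad51b stood at 7.77 and 8.37 CPM against 5.55 and 4.95 (-0.62, SE 0.24, edgeR adjusted p = 0.0843). Rad51c and Rad51d did not pass either, at -0.13 and 0.01, and Rad51d was negative with library totals.

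Further accessory factors of strand exchange gave 2 calls among 3, both lower, beside 14.5% of genes tested. Rad51ap1, which promotes strand pairing, was the most abundant member per length in WT and went from 130.0 and 119.9 CPM to 55.4 and 71.4 CPM (-0.98, SE 0.14, edgeR adjusted p = 0.00325). The translocase gene Rad54l went from 55.7 and 64.2 CPM to 27.0 and 36.4 CPM (-0.92, SE 0.17, edgeR adjusted p = 0.00742). Its relative Rad54b stood at 49.9 and 47.8 CPM against 45.9 and 54.6, with overlap (0.04, SE 0.14, edgeR adjusted p = 0.834; negative with library totals). Rad54b shares 2068 of its 5782 exon bases with Fsbp on the same strand, so reads of the pair could be split between them. Fsbp fell (-1.39, SE 0.38, edgeR adjusted p = 0.0337).

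BLM, TOP3A, RMI1 and RMI2 together dissolve double Holliday junctions without crossovers, and the genes for the RMI subunits were the ones that fell. Rmi2 (chromosome 16, 10835059 to 10892966) went from 25.4 and 26.5 CPM to 8.08 and 8.06 CPM (-1.68, SE 0.17, edgeR adjusted p = 0.00114), the smallest p of the 44. Rmi1 went from 41.1 CPM in each WT library to 27.6 and 32.0 CPM (-0.46, SE 0.14, edgeR adjusted p = 0.0405), and was not called by DESeq2 (0.104), without WT 13 (0.202), without WT 15 (0.225) or without Setd2-CD4 cre 22. The helicase gene Blm stood at 108 and 114 CPM against 121 and 127 (0.16, SE 0.11, edgeR adjusted p = 0.291), above WT in both libraries. The topoisomerase gene Top3a stood at 33.0 and 24.4 CPM against 31.3 and 27.6, with overlap (0.04, SE 0.18, edgeR adjusted p = 0.891; negative with library totals).

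Of the structure-specific nucleases, 4 of 5 fell, beside 14.5% of genes tested. Eme1 and Eme2 encode alternative partners of the MUS81 nuclease. Eme2 (chromosome 17, 24888486 to 24895087) held 83 and 105 counts in the WT libraries against 14 and 10 in Setd2-CD4 cre, that is 6.32 and 7.99 CPM against 1.36 and 0.916. Its log2 fold change was -2.65 (SE 0.36, edgeR adjusted p = 0.00235), and on the log2(FPKM + 1) scale, which compresses low values, it was -0.65. Eme2 shares 1557 of its 6000 exon bases with Mapk8ip3 on the same strand and 1694 with Spsb3 on the other strand. The processing notes name RSEM but give no strand setting or gene models. How such reads were divided between these genes thus cannot be told. Neither neighbour passed, with Mapk8ip3 at 0.16 and Spsb3 at -0.03 (edgeR adjusted p = 0.262 and 0.887).

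Eme1 went from 20.9 and 25.8 CPM to 13.9 and 15.7 CPM (-0.66, SE 0.18, edgeR adjusted p = 0.0273), and Mus81 from 31.6 and 29.7 CPM to 19.4 and 23.4 CPM (-0.52, SE 0.16, adjusted p = 0.0376). Fan1, a crosslink-unhooking nuclease gene, went from 13.9 and 12.1 CPM to 7.30 and 8.06 CPM (-0.76, SE 0.21, edgeR adjusted p = 0.0285). In all 3 genes both Setd2-CD4 cre libraries lay below both WT libraries, as in 36.1% of genes tested. DESeq2 gave these genes adjusted p-values of 0.0628, 0.102 and 0.0947, and the calls were lost without WT 13 (0.0591, 0.218 and 0.228) and without WT 15 (0.254, 0.171 and 0.118). Mus81 also missed the threshold without Setd2-CD4 cre 22 (adjusted p = 0.0569). The nuclease scaffold gene Slx4 stood at 41.9 and 47.7 CPM against 31.9 and 41.3 (-0.29, SE 0.16, edgeR adjusted p = 0.206).

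All 4 genes grouped here under end resection had higher values in both Setd2-CD4 cre libraries than in either WT library, and 1 passed. Such a gap above WT was seen in 34.6% of genes tested, and 16.2% were called higher. Exo1, described below with mismatch repair, also serves long-range resection and fell (-1.12). Rbbp8 went from 63.4 and 62.3 CPM to 102 and 86.4 CPM (0.59, SE 0.13, edgeR adjusted p = 0.0119), and missed the threshold without WT 13 (0.0831) and without WT 15 (0.104). The MRE11-RAD50-NBS1 complex senses and trims broken ends. Its genes Nbn (34.7 and 29.7 CPM against 48.4 and 39.5), Rad50 (114 and 114 against 132 and 137) and Mre11a (69.8 and 66.2 against 76.9 and 70.1) had log2 fold changes of 0.45, 0.24 and 0.11 with edgeR adjusted p-values of 0.0639, 0.117 and 0.49. The value of Mre11a was -0.04 with library totals.

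Exo1, an exonuclease that serves both mismatch repair and long-range resection, fell from 20.4 and 17.2 CPM to 8.17 and 9.16 CPM (-1.12, SE 0.19, edgeR adjusted p = 0.00564). The call was lost without WT 13 (adjusted p = 0.0548). Msh3, a mismatch recognition gene, stood at 36.1 and 32.3 CPM against 38.7 and 34.1 (0.09, SE 0.14, edgeR adjusted p = 0.663), and Pms2, an endonuclease gene of the same pathway, at 43.0 and 41.1 CPM against 42.3 and 45.5 (0.06, SE 0.13, adjusted p = 0.737). Both values were negative with library totals.

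Checkpoint genes moved both ways. Chek2, the effector kinase downstream of ATM (chromosome 5, 110839979 to 110874145), fell from 39.5 and 38.0 CPM to 14.9 and 19.6 CPM (-1.17, SE 0.17, edgeR adjusted p = 0.00307). Chek1, the effector downstream of ATR, fell from 44.9 and 57.3 CPM to 36.4 and 34.9 CPM (-0.52, SE 0.15, edgeR adjusted p = 0.0366), a call lost by DESeq2 (0.0575), without WT 13 (0.0514) and without WT 15 (0.355). WT 15 was the high library for Chek1, and without it the log2 fold change was -0.34.

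Atr (chromosome 9, 95857597 to 95951644) rose from 96.4 and 89.3 CPM to 131 and 119 CPM (0.43, SE 0.11, edgeR adjusted p = 0.0251). It lost its call with library totals (0.0897), with upper-quartile factors (0.0606), on both FPKM scales, without WT 13 (0.132) and without WT 15 (0.253). Atm stood at 103 and 96.7 CPM against 83.8 and 101, with overlap (-0.12, SE 0.13, edgeR adjusted p = 0.51). Atrip, which encodes the partner of ATR, held 70 and 65 counts against 87 and 50 (0.34, SE 0.33, edgeR adjusted p = 0.463). Without Setd2-CD4 cre 24 it was 0.72 and passed (adjusted p = 0.047), and without Setd2-CD4 cre 22 it was -0.16. It shares 1147 exon bases on the same strand with the exonuclease gene Trex1, which stood at 9.83 and 6.92 CPM against 69.2 and 24.5, so the library with the most Atrip was also the one with the most Trex1.

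Levels can be compared between genes as CPM per kilobase of merged exons. In WT they ran from 0.718 for Atrip to 26.0 for Rad51ap1, with a median of 6.04. In the dissolution complex, WT means were 12.7 for Blm, 6.24 for Top3a, 6.25 for Rmi1 and 5.77 for Rmi2, and Setd2-CD4 cre means were 14.1, 6.40, 4.54 and 1.79. Rmi2 lay near Top3a and Rmi1 in WT and well below them in both Setd2-CD4 cre libraries. Mus81 and Eme1 had similar means per length, 8.60 and 8.46 in WT against 5.99 and 5.35 in Setd2-CD4 cre. Eme2 lay below both in each library, at 1.19 in WT and 0.190 in Setd2-CD4 cre.

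**Figure D3:**
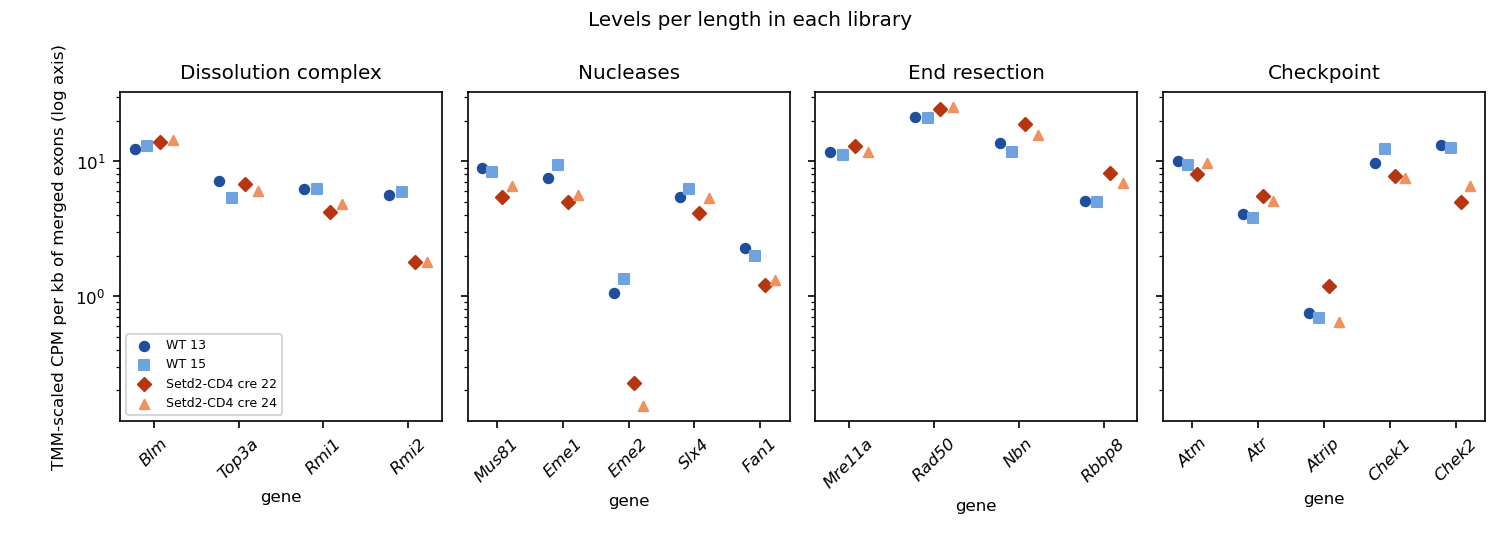
TMM-scaled CPM per kilobase of merged exons (y axis, log scale) in each of the 4 libraries for members of 4 role groups (x axis, gene). Rmi2, Eme2 and Chek2 drop in both Setd2-CD4 cre libraries, while Blm, Rad50 and Rbbp8 lie above WT in both.

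Other repair pathways were followed with the same fit, in which 14.5% of all genes tested were lower and 16.2% higher. Among 40 further crosslink repair and recombination genes 11 fell (27.5%) and 3 rose (7.5%), with a median log2 fold change of -0.22. Those that fell included Dna2 (-1.53), Gen1 (-1.19), Faap24 (-1.09) and Recql (-1.06). The recombination accessory gene Sfr1 rose (1.15, SE 0.11, edgeR adjusted p = 0.00106), as did Wdr48 and Rad52 (both 0.41). Of 17 damage signalling genes 6 fell and 1 rose (median -0.35), with the histone variant gene H2afx at -1.59 (SE 0.15, edgeR adjusted p = 0.00106) and the fork protection gene Timeless at -1.14 (SE 0.15, adjusted p = 0.0019). The gene that rose was Trp53bp1, which encodes an antagonist of resection (0.50). DESeq2 called 7 genes of the first list lower, beside 10.5% of all genes with an adjusted p. With a library left out, the median was -0.25 to -0.19 in the first list and -0.40 to -0.18 in damage signalling.

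End joining and excision repair act on broken ends or on lesions of a single strand. Of 9 end joining genes 2 fell and 1 rose (median -0.25), with the Ku80 gene Xrcc5 at -1.20 and the polymerase gene Polm at 0.58 (edgeR adjusted p = 0.00309 and 0.0132). The ligase gene Lig4 was the other that fell (-0.79). Of 19 base excision and single-strand repair genes 2 fell and 4 rose (median -0.07), including the glycosylase gene Neil3 at -1.10 and the polymerase gene Polb at 0.83 (edgeR adjusted p = 0.00438 and 0.00431). Nthl1 also fell, and Neil1 (0.50), Apex1 (1.09) and Apex2 (0.82) rose. Of 18 nucleotide excision repair genes 4 fell and 3 rose (median 0.12, negative with library totals), including the TFIIH genes Gtf2h3 at -1.52 and Gtf2h1 at 0.90 (edgeR adjusted p = 0.00134 and 0.00802). Ddb2 (-0.62) and Uvssa (-0.39) were among the others that fell, and Xpa (0.71) and Gtf2h4 (0.55) also rose. With a library left out, the medians of these 3 lists were -0.27 to -0.18, -0.20 to 0.0030 and 0.04 to 0.18. With library totals 7 base excision genes were lower, beside 22.3% of all genes tested. In the main fit the shares lower and higher were 22.2% and 11.1% for end joining genes. They were 10.5% and 21.1% for base excision genes and 22.2% and 16.7% for nucleotide excision genes. Over all genes tested they were 14.5% and 16.2%, and differences from these shares were not tested.

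Genes of S phase were also mostly lower. Of 29 tested, 21 (72.4%) fell and 8 did not pass, with a median log2 fold change of -0.65. With a library left out the median of these genes was -0.76 to -0.53. Their summed level was 3418 and 3621 CPM in the WT libraries against 2194 and 2474 CPM in Setd2-CD4 cre, and that of the 44 repair genes was 1985 and 2024 CPM against 1616 and 1743. The repair genes thus summed to 58.1 and 55.9% of the S phase genes in WT and to 73.7 and 70.5% in Setd2-CD4 cre. The clamp gene Pcna (-1.04, edgeR adjusted p = 0.00135) and the thymidine kinase gene Tk1 (-1.15, adjusted p = 0.00138) had the smallest p-values of that list. Of 24 genes of G2 and M phase 2 fell (8.33%) and 4 rose (16.7%), beside 14.5% and 16.2% of all genes tested. Their median log2 fold change was -0.06, with Birc5 at -0.76 and Ube2c at 0.53 (edgeR adjusted p = 0.00255 and 0.00822). Mki67 also fell (-0.58), and Cdc20 (0.39), Kif11 (0.45) and Kif23 (0.46) also rose. With a library left out, the median of these G2 and M phase genes could take either sign. The part of cell cycle phase in the repair results was not tested.

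**Figure D4:**
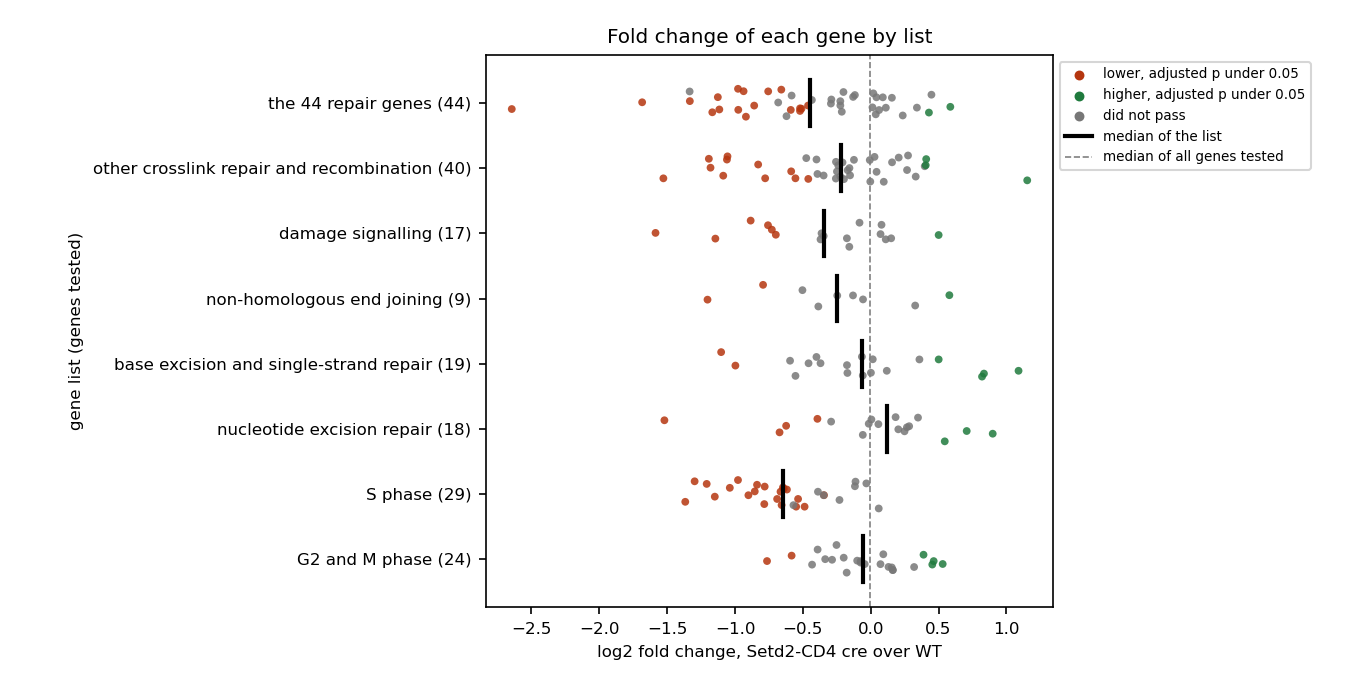
Each point is the edgeR log2 fold change of 1 gene (x axis) in the 44 repair genes or in 1 of 7 other lists (y axis, genes tested in brackets), with a black bar at the list's median and a dashed line at the median of all genes. Medians are -0.45 for the repair genes, -0.65 for S phase genes and -0.06 for G2 and M phase genes.

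Markers of other cells also differed between genotypes. Of 14 B cell markers 12 rose, and their summed level was 230 to 269 CPM in WT and 564 to 806 CPM in Setd2-CD4 cre, with Setd2-CD4 cre 22 the highest. Of 11 markers of CD8 T, NK and gamma-delta T cells 8 were tested and 4 rose (Klrd1, Klre1, Gzma and 5830411N06Rik), beside 16.2% of genes tested. Sums were 225 to 247 and 340 to 521 CPM, with Gzma alone at 141 and 146 against 295 and 201. Cd8a stood at 35.1 and 50.6 against 75.2 and 24.8 CPM, and Cd8b1 at 20.7 and 22.0 against 51.9 and 20.4. Neither passed, nor did Trdc (0.07) or Tcrg-C1 (0.82). Klrb1c, not tested, held 17 and 5 against 6 and 2 counts. Of 11 myeloid and dendritic cell markers 5 were tested and 1 rose (Flt3), with sums of 20.2 to 21.5 and 25.0 to 29.5 CPM. Without Flt3 the other 10 summed to 18.9 and 16.2 CPM in WT against 8.17 and 14.0 CPM in Setd2-CD4 cre. Lyz2 (-1.47), Csf1r (-0.96) and Itgax (-0.56) did not pass, Adgre1 held 8 counts in each WT library and 0 in each Setd2-CD4 cre library, and Siglech held 0 in all 4. Of the 10 T and Th17 cell markers 3 fell (Cd3d, Cd3e and Cd3g) and 4 rose, among them Rora, Il17a and Il23r. Over all genes tested 14.5% were lower and 16.2% higher. The number of these markers that fell moved with a library left out. The part of these cells in the repair results was not tested.

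Position and size were compared among the 44 genes as a description. The Spearman correlation of log2 fold change with gene span was 0.31 and with WT level per length 0.17, over genes that share the same 4 libraries. A protein-coding gene started within 1000 bases on the opposite strand for 18 of the 44, of which 8 fell (median log2 fold change -0.64), and 10 of the other 26 fell (median -0.26). Exon bases were shared with another counted gene in 17 of the 44, and with no strand setting given such reads cannot be told apart. Fanca shares 920 bases with Zfp276 (-0.64, edgeR adjusted p = 0.0317) and Mus81 173 bases with Efemp2 (-1.07, adjusted p = 0.00752), both on the opposite strand and both genes that fell. Among the 27 that share none, 11 fell and 1 rose (median -0.43).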

How the data were processed

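Per the labels' protocols, TRIzol RNA was sequenced at a sequencing company (Illumina HiSeq). Per the file headers, the authors deposited raw counts per gene beside FPKM. The submitters' processing notes name Bowtie2, RSEM, GRCm38.p6 and mm10. Strand setting and gene models: not given in the sources used here. Groups and replicate numbers follow the titles, although the cell type label of WT 15 opens with 14. No label says that libraries came from separate mice, so the spread behind each p may be technical.

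The test was edgeR 4.0.16 (R 4.3.3) on the unchanged counts (TMM factors of 0.934 to 1.06, filterByExpr, robust quasi-likelihood fit, Benjamini-Hochberg adjustment over 12927 genes, threshold 0.05). SEs are the log2 fold change divided by the square root of F. DESeq2 1.42.0 and limma 3.58.1 served as alternatives. Fits were tested on simulated data. A count of 0 allows up to 3 counts (0.240 to 0.273 CPM), for counting error only. Deposited FPKM used gene lengths above the merged exons of GENCODE M21 for 38 of 44 genes (10239 against 6000 bases for Eme2), so levels between genes use CPM per kilobase of merged exons in place of the planned FPKM. Of the 44 deposited gene spans, 36 equal GENCODE M21. Of 157 symbols in the other lists, 156 matched a gene.

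The genes and lists were chosen with earlier results of these data known. All 44 members could be named, with values per library for those past the threshold with an absolute log2 fold change of at least 0.58 and the 2 others of smallest p per role, and the 2 genes of smallest p in each other list. Library values of Fancf, Fancm, Rad54b, Top3a, Mre11a, Atm and Atrip were added after their values were seen. So were the other genes named from other lists, overlapping neighbours and the myeloid marker sum without Flt3. Library values of CD8 T, NK and gamma-delta T cell markers were likewise added afterwards. Protein sequences were not used here, and some items are not reported here.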

Additional observations from a re-analysis of the deposited data

How the results depend on the processing

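No paired analysis was possible because the groups compared share no replicate number. Over 12 alternatives all 20 genes called kept their direction, and 8 stayed past the threshold in each. The number of members lower was 12 to 21 with another tool, scaling, filter or unit, and 9 (without WT 15) to 23 (without Setd2-CD4 cre 24) with a library left out, where the lone library is assumed to vary like the other genotype. The number higher was 1 with upper-quartile factors, library totals and either FPKM scale, and 0 to 4 with a library left out. Without Setd2-CD4 cre 24, 21.6% of all genes tested were lower and 22.8% higher. The members' median log2 fold change was -0.61 to -0.34.

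Upper-quartile factors and totals moved the median of all genes to -0.12 and -0.16, and log2(FPKM + 1) and log2(FPKM + 0.1) to -0.12 and -0.16. Small positive fold changes turned negative under these 4 settings, in that order: Fancm at -0.092, -0.13, -0.11 and -0.14, Rad51d at -0.099, -0.14, -0.12 and -0.13, Rad54b at -0.069, -0.11, -0.10 and -0.11, Top3a at -0.073, -0.11, -0.082 and -0.099, Msh3 at -0.022, -0.063, -0.042 and -0.060, and Pms2 at -0.050, -0.089, -0.071 and -0.088. Mre11a was -0.041, -0.037 and -0.041 under the last 3, and the nucleotide excision repair median log2 fold change was -0.032, -0.023 and -0.029. With a library left out, the sign turned in Fancm (-0.17 to 0.20), Rad51d (-0.082 to 0.11), Rad54b (-0.085 to 0.17), Top3a (-0.17 to 0.27), Atm (-0.25 to 0.017) and Atrip (-0.16 to 0.72), and in the medians of G2 and M phase genes (-0.14 to 0.083) and base excision genes (-0.20 to 0.0030). The cause was not tested. Depth limits Fancf and Eme2 most, with counts from 6 and 10 in a library.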
